A study of Mus musculus with 12 samples.

Results

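Complement, coagulation and fibrinolysis are the protein cascades of blood and interstitial fluid that tag debris for removal, form fibrin and dissolve it again. The module described here holds 33 mouse genes of these cascades, taken by symbol from a list of names, among 17471 genes listed in the deposited files. It comprises 17 complement genes and 16 genes of coagulation and fibrinolysis. All 33 were listed and all 33 were tested. The levels of 3 of them, F10, F5 and Serpinb2, were past the filter on low counts only because of the infarcted hearts, so their MI over sham difference was partly set by that filter.

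In complement, the C1q complex binds antibodies, dying cells or microbes and starts the classical pathway, lectins start a parallel route, and both converge on cleavage of C3. Fragments of C3 coat debris, and small peptides cut from C3 and C5 attract myeloid cells through their receptors C3ar1 and C5ar1. In coagulation, factor X and factor V form the enzyme complex that makes thrombin, thrombin makes fibrin, and factor XIII cross-links it. Plasmin, released from plasminogen by the activators Plat and Plau, removes that fibrin. The liver makes most of the circulating proteins, whereas macrophages, fibroblasts and endothelium make some of them locally, C1q chains in macrophages being a standard example.

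The 12 RNA sequencing libraries came from left ventricles of mice aged 6 to 10 weeks, 3 libraries in each of 4 groups, all collected on day 4 after surgery. Cre-positive MI hearts carried floxed Yap alleles and a copy of MerCreMer at the endogenous periostin locus (Postn) and had their left anterior descending artery tied off for good, which causes a myocardial infarction (MI). Cre-negative MI hearts came from siblings with the same floxed Yap alleles and wild-type Postn, ligated in the same way. Cre-positive sham hearts and Cre-negative sham hearts had the same genotypes and a sham operation. MerCreMer is a Cre recombinase that acts only in the presence of tamoxifen, and mice of all 4 groups ate a tamoxifen citrate diet from the time of surgery. Postn is switched on in activated fibroblasts, so the design aims Yap loss at those cells, while the RNA came from the whole ventricle. No group carried MerCreMer without floxed Yap, so effects of Yap loss and of the Cre allele at Postn cannot be told apart.

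Total expected counts per library were 10257675 to 15176286. Levels are given as CPM, the counts of a gene scaled to a common library total by the TMM method, and 3 counts, taken as the floor of detection, correspond to 0.198 to 0.292 CPM of the unscaled totals. The design check came out unevenly. Yap1 itself, measured in the whole ventricle, had 93.9, 92.9 and 91.1 CPM in Cre-positive MI and 84.6, 96.4 and 93.99 CPM in Cre-negative MI libraries, against 121, 102 and 107 CPM in Cre-positive sham and 116, 115 and 114 CPM in Cre-negative sham libraries. These values overlapped between genotypes after either surgery, and the log2 fold change of Cre-positive over Cre-negative MI hearts was 0.02 ± 0.09 (adjusted p = 0.971). Postn was lower in every Cre-positive library of either surgery, with 603, 628 and 674 CPM in Cre-positive MI and 1590, 1528 and 1729 CPM in Cre-negative MI libraries, against 10.2, 3.76 and 11.5 CPM in Cre-positive sham and 111, 86.8 and 62.7 CPM in Cre-negative sham libraries. The library of Cre-positive sham replicate 2 stood apart, at 57.8 on the second principal component against -21.4 to 14.7 for the other libraries, and it was the lowest of the 6 sham libraries for 18 of the 33 module genes. Its summed macrophage and monocyte markers were 117 CPM, where the lowest and highest of the remaining sham libraries were 253 and 338 CPM, and its summed cardiomyocyte markers were 59450 CPM, against 88740 to 109800 CPM. Y-linked genes above 10 CPM were found in 1 of 3 Cre-positive MI, 3 of 3 Cre-negative MI, 0 of 3 Cre-positive sham and 2 of 3 Cre-negative sham libraries, so sex was not balanced between groups. Replicates carry only a number in the labels, so the p-values measure the spread between these libraries. In whole tissue, more cells of a type and more RNA per cell cannot be told apart.

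Infarction was accompanied by higher levels of most of the module in both genotypes. By edgeR's quasi-likelihood test at an adjusted p under 0.05, 27 of 33 genes rose and 1 fell in Cre-positive MI over Cre-positive sham hearts. Of all genes tested, 25.7% rose, 19.5% fell and 45.2% were called in either direction. In Cre-negative MI over Cre-negative sham hearts, 23 of 33 rose and 3 fell. Of all genes, 29.9% rose, 24.4% fell and 54.3% were called. The same 23 genes rose in both genotypes, and Tfpi, the inhibitor of the tissue factor pathway, fell in both. Levels of 24 module genes were higher in each of the 6 MI libraries than in any of the 6 sham libraries, an arrangement that 24% of all genes tested showed. The counts of 27, 23 and 24 module genes each include F10, F5 and Serpinb2, whose difference was partly set by the filter on low counts. The other 30 module genes passed that filter in sham libraries too. The median log2 fold change of the module was 1.11 in Cre-positive and 1.35 in Cre-negative hearts, beside 0.02 over all genes in either genotype. Those medians lie well inside the range of the genes, and setting Serpinb2 at its lower bound leaves them as they are. Without Cre-positive sham replicate 2, 26 module genes were called in Cre-positive hearts (25 up, 1 down) and 28 in Cre-negative hearts (25 up, 3 down).

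**Figure D1:**
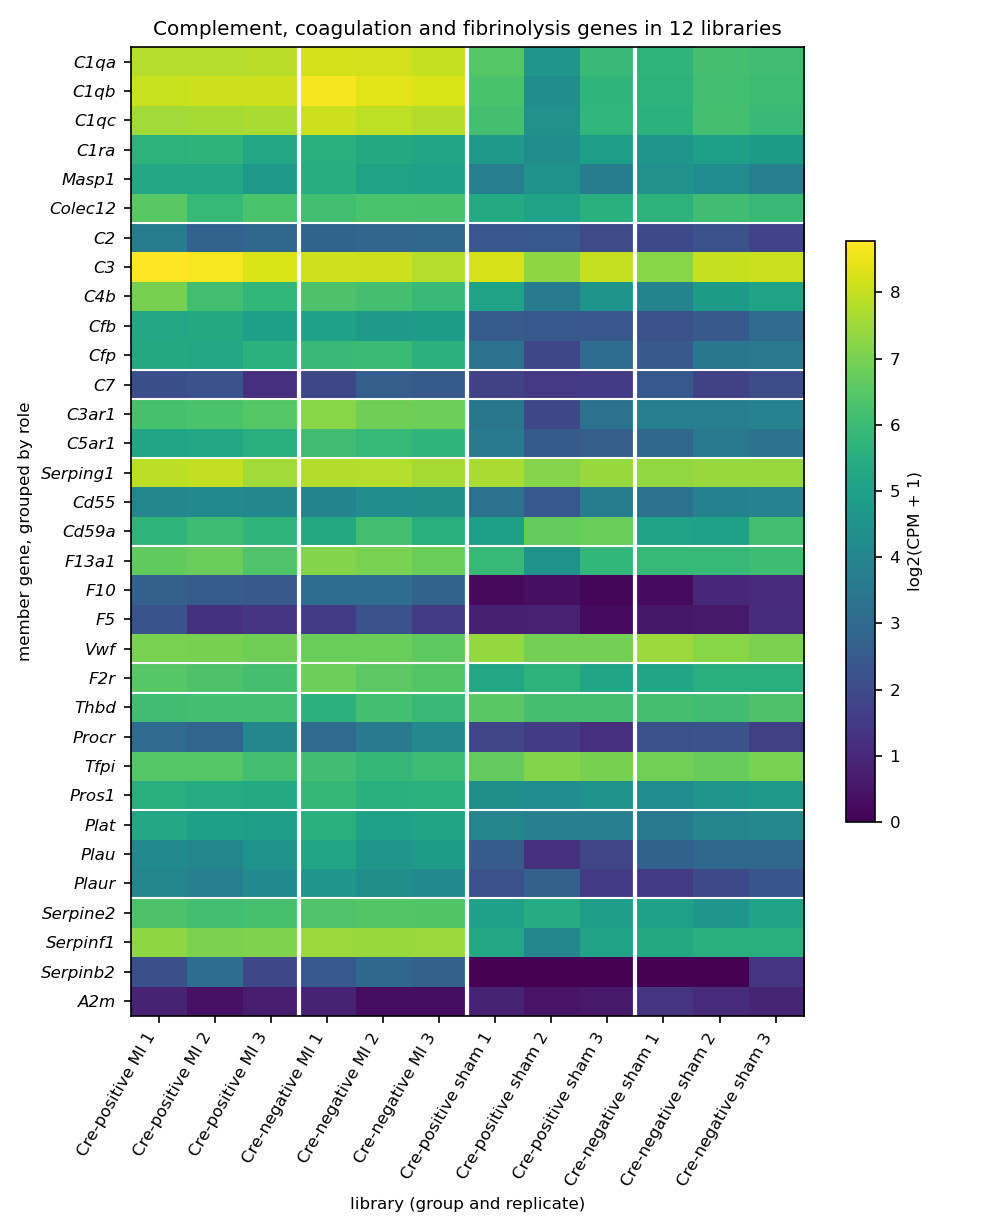
Level of each of the 33 module genes in each of the 12 libraries, as log2(CPM + 1), with genes grouped by role and libraries by group. Most genes are brighter in the 6 MI columns, Tfpi is dimmer there, and the column of Cre-positive sham replicate 2 is dark for the C1q chains.

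The 3 chains of C1q were the most abundant module transcripts of the infarcted ventricle when levels were compared per transcript length. C1qb in Cre-positive MI hearts averaged 275 ± 8.14 FPKM, C1qa 224 ± 4.72 FPKM and C1qc 197 ± 7.70 FPKM (SD, n = 3 each). FPKM are fragment counts scaled by transcript length and library size. In Cre-negative MI hearts the order was the same, with 372 ± 58.7, 292 ± 27.3 and 261 ± 35.8 FPKM for C1qb, C1qa and C1qc (SD, n = 3 each). Libraries of neighbouring ranks did not overlap except for C1qa and C1qc in Cre-negative MI hearts. In Cre-positive sham hearts Serping1 came first at 85.0 ± 14.8 FPKM and C1qa followed at 49.0 ± 27.9 FPKM (SD, n = 3 each), with overlap between libraries. In Cre-negative sham hearts Serping1 also came first, at 86.1 ± 5.70 FPKM, ahead of C1qa at 56.6 ± 10.7 FPKM (SD, n = 3 each), with no overlap between those libraries, while C1qa, C1qb and C1qc overlapped with each other. The ratio of C1qb to C1qa in FPKM was 1.19 to 1.25 in Cre-positive MI and 1.2 to 1.38 in Cre-negative MI libraries, against 0.806 to 0.893 in Cre-positive sham and 0.954 to 0.98 in Cre-negative sham libraries. That ratio was picked after its values were seen and carries no test.

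C1qa, the A chain, had 224, 224 and 227 CPM in Cre-positive MI and 296, 287 and 258 CPM in Cre-negative MI libraries, against 87.98, 23.6 and 60.7 CPM in Cre-positive sham and 53.2, 72.4 and 67.02 CPM in Cre-negative sham libraries. Every MI library was far above every sham library, and the lowest was Cre-positive sham replicate 2. Its log2 fold change of MI over sham was 1.97 ± 0.33 (adjusted p = 0.000441) in Cre-positive hearts and 2.13 ± 0.33 (adjusted p = 0.000176) in Cre-negative hearts. C1qb, the B chain, had 262, 273 and 279 CPM in Cre-positive MI and 399.9, 338 and 308 CPM in Cre-negative MI libraries, against 75.6, 18.6 and 53.1 CPM in Cre-positive sham and 49.8, 68.99 and 64.5 CPM in Cre-negative sham libraries. The log2 fold change of C1qb was 2.46 ± 0.36 (adjusted p = 0.000157) in Cre-positive hearts and 2.51 ± 0.36 (adjusted p = 8.82e-05) in Cre-negative hearts. C1qc, the C chain, had 190.1, 191 and 202 CPM in Cre-positive MI and 273, 245 and 217 CPM in Cre-negative MI libraries, against 72.6, 20.8 and 54.4 CPM in Cre-positive sham and 48.4, 71.6 and 59.5 CPM in Cre-negative sham libraries. C1qc rose by 1.98 ± 0.32 (adjusted p = 0.000382) in Cre-positive hearts and 2.03 ± 0.32 (adjusted p = 0.000211) in Cre-negative hearts on the log2 scale. For all 3 chains the MI and sham libraries did not overlap in either genotype. Without Cre-positive sham replicate 2 the log2 rise in Cre-positive hearts was 1.55 for C1qa, 2.03 for C1qb and 1.57 for C1qc, each still past the threshold.

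The 3 chains lie side by side on mouse chromosome 4 (build GRCm38.p6), C1qb at chr4:136880126-136886200, C1qc at chr4:136889801-136892936 and C1qa at chr4:136895916-136898844. C1qc is separated from C1qa by 2980 bases and from C1qb by 3601 bases. Promoter windows of 300 bases, 250 before and 50 after a transcript start, were taken from RefSeq for GRCm38.p6 and were found for 21 of the 33 genes (24 windows). Windows were searched on both strands for GAGGAAG, a core of the site of the myeloid factor PU.1, for TGANTCA (AP-1), TTGCNNAA (C/EBP), TTCNNNGAA (GAS, the STAT site), GGGA and TTCC with any 2 bases between (NF-kB), GGAATG (TEAD, the DNA-binding partner of Yap) and GAAA repeated after any 2 bases (ISRE). Windows of C1qb (chr4:136886151-136886450) and C1qc (chr4:136892865-136893164), both on the minus strand, are shown because these neighbours moved together. Letters are in lower case, 5′ to 3′, and a match to any of these motifs is in capitals.
C1qb: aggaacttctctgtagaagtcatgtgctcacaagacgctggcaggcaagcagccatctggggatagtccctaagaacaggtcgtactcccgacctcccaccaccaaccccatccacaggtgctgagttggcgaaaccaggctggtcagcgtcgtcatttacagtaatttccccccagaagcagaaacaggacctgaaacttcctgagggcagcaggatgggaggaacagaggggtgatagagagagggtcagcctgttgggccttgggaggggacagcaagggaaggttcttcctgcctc
C1qc: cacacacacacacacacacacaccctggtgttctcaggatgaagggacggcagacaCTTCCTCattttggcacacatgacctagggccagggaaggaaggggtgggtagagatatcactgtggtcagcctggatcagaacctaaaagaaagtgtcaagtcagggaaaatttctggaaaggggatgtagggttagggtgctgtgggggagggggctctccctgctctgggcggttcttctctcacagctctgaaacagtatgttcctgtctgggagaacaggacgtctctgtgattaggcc
The C1qc window holds a PU.1 core read on the opposite strand, CTTCCTC, and the C1qb window holds none of the 7 motifs. Over the module, 6 of 24 windows held the PU.1 core, against 13.6% of 32851 RefSeq windows of the same length. AP-1 was in 6 (7.81% of all windows), C/EBP in 6 (10.8%), GAS in 5 (8.3%), TEAD in 2 (14.7%), ISRE in 1 (3.44%) and NF-kB in 0 (1.47%). Some genes have several windows, and by gene the PU.1 core was found for 4 of 21 members (C1qc, F13a1, Plaur and Tfpi), against 15.4% of 27025 genes. By gene AP-1 was found for 5 (8.97% of all genes), C/EBP for 5 (12.2%) and GAS for 4 (9.55%). TEAD was found for 2 (16.6%), ISRE for 1 (3.99%) and NF-kB for 0 (1.63%). A match describes letters in this window and no binding was measured.

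Proteases and collectins that act beside C1q moved less. C1ra, a protease of the C1 complex, averaged 46.1 ± 8.21 CPM in Cre-positive MI hearts and 24.3 ± 5.25 CPM in Cre-positive sham hearts, and 40.0 ± 5.33 CPM in Cre-negative MI hearts and 26.9 ± 3.10 CPM in Cre-negative sham hearts (SD, n = 3 each). Its log2 fold change was 0.93 ± 0.18 (adjusted p = 0.00122) in Cre-positive hearts and 0.57 ± 0.18 (adjusted p = 0.0167) in Cre-negative hearts. The Cre-negative call was lost on leaving out Cre-negative MI replicate 1 (adjusted p = 0.0696), sham replicate 1 (0.0821) or sham replicate 3 (0.0566). Masp1, a protease of the lectin pathway, had 36.5, 37.7 and 25.2 CPM in Cre-positive MI and 43.5, 33.2 and 31.4 CPM in Cre-negative MI libraries, against 12.5, 21.4 and 12.3 CPM in Cre-positive sham and 20.7, 18.5 and 13.2 CPM in Cre-negative sham libraries, with no overlap between MI and sham. Masp1 rose by 1.11 ± 0.25 (adjusted p = 0.00309) in Cre-positive hearts and 1.05 ± 0.24 (adjusted p = 0.00323) in Cre-negative hearts on the log2 scale. Its gene overlaps the protein-coding gene Rtp4, which also rose (1.69 ± 0.40 and 1.22 ± 0.39). Whether counting used strand is not given in the sources used here, so reads in the overlap may be shared. Colec12, a membrane-bound collectin, rose in Cre-positive hearts and did not pass the test in Cre-negative hearts, with log2 fold changes of 0.93 ± 0.17 (adjusted p = 0.000962) in Cre-positive hearts and 0.32 ± 0.17 (adjusted p = 0.126) in Cre-negative hearts. The difference between those responses was 0.60 ± 0.24 (adjusted p = 0.597). In Cre-negative hearts Colec12 was called in 3 alternatives, at adjusted p of 0.0204 to 0.0389, and in the authors' deposited table (0.0425). Colec12 was the only module gene with an unadjusted p under 0.05 in that test (0.0282), which 8.16% of all genes reached.

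Among the genes of the convertases, the enzymes that cleave C3, the alternative pathway showed the largest rises. Cfb, the protease of the alternative convertase, had 37.4, 39.1 and 29.8 CPM in Cre-positive MI and 31.5, 25.7 and 27.5 CPM in Cre-negative MI libraries, against 4.75, 4.31 and 4.23 CPM in Cre-positive sham and 3.48, 4.49 and 7.39 CPM in Cre-negative sham libraries. MI and sham libraries were separated by a wide gap, and Cre-positive MI replicate 3 at 29.8 CPM lay within the Cre-negative MI range. Cfb rose by 2.99 ± 0.22 (adjusted p = 9.85e-07) in Cre-positive hearts and 2.46 ± 0.22 (adjusted p = 2.26e-06) in Cre-negative hearts on the log2 scale. Cfp encodes properdin, which stabilises that convertase, and had 39.02, 37.6 and 47.5 CPM in Cre-positive MI and 61.3, 61.8 and 49.2 CPM in Cre-negative MI libraries, against 8.85, 2.66 and 7.74 CPM in Cre-positive sham and 4.42, 9.98 and 10.3 CPM in Cre-negative sham libraries. MI libraries were all above sham libraries, and Cre-positive sham replicate 2 was lowest. The log2 fold change of Cfp was 2.68 ± 0.35 (adjusted p = 7.56e-05) in Cre-positive hearts and 2.81 ± 0.35 (adjusted p = 3.09e-05) in Cre-negative hearts. C2, the protease of the classical convertase whose gene lies 88 bases from Cfb on chromosome 17, rose by 1.07 ± 0.27 (adjusted p = 0.00638) in Cre-positive hearts and 1.15 ± 0.28 (adjusted p = 0.00416) in Cre-negative hearts on the log2 scale from low levels of 2.37 to 4.40 CPM in sham libraries. C4b, a component of the classical convertase, had 124, 69.04 and 55.7 CPM in Cre-positive MI and 79.3, 71.5 and 60.5 CPM in Cre-negative MI libraries, against 33.4, 11.1 and 22.5 CPM in Cre-positive sham and 14.2, 26.4 and 32.2 CPM in Cre-negative sham libraries. C4b rose by 1.89 ± 0.40 (adjusted p = 0.0021) in Cre-positive hearts and 1.54 ± 0.39 (adjusted p = 0.00564) in Cre-negative hearts. Cre-positive MI replicate 1 was the highest library for both C2 and C4b. The near copy C4a had at most 7 reads in any library, and RSEM may split reads between the copies.

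C3, the protein on which all 3 pathways converge, had 439, 417 and 310.3 CPM in Cre-positive MI and 283, 278 and 224 CPM in Cre-negative MI libraries, against 303, 156 and 258 CPM in Cre-positive sham and 147, 259 and 267 CPM in Cre-negative sham libraries. Its Cre-positive MI libraries were all above the 3 Cre-negative MI libraries, while MI and sham overlapped within Cre-negative hearts. The log2 fold change was 0.70 ± 0.26 (adjusted p = 0.042) in Cre-positive hearts and 0.22 ± 0.26 (adjusted p = 0.49) in Cre-negative hearts. The call in Cre-positive hearts was lost in 13 of the alternatives tried, among them RLE scaling (adjusted p = 0.0516). It was also lost on leaving out Cre-positive sham replicate 2 (log2 fold change 0.43, adjusted p = 0.135), MI replicate 1 (0.125), MI replicate 2 (0.104) or sham replicate 3 (0.0879). The difference of the injury response was 0.48 ± 0.36 (adjusted p = 0.733). C7, the only member from the membrane attack complex, stayed between 1.26 and 5.31 CPM in every library, and its log2 fold change was 0.45 ± 0.40 (adjusted p = 0.384) in Cre-positive hearts and 0.36 ± 0.37 (adjusted p = 0.435) in Cre-negative hearts.

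Receptors for the peptides cut from C3 and C5 rose strongly. C3ar1, the receptor of the C3 fragment, had 73.9, 78.1 and 88.5 CPM in Cre-positive MI and 147, 117 and 115 CPM in Cre-negative MI libraries, against 9.81, 2.66 and 8.87 CPM in Cre-positive sham and 12.8, 12.98 and 14 CPM in Cre-negative sham libraries. Its MI libraries lay far above its sham libraries, and within each surgery the 3 Cre-positive libraries lay below the 3 Cre-negative ones. The log2 fold change of MI over sham was 3.49 ± 0.31 (adjusted p = 3.73e-06) in Cre-positive hearts and 3.25 ± 0.30 (adjusted p = 3.13e-06) in Cre-negative hearts, and 3.06 in Cre-positive hearts without sham replicate 2. C5ar1, the receptor of the C5 fragment, had 34.9, 36.9 and 44.5 CPM in Cre-positive MI and 67.4, 57.8 and 52.4 CPM in Cre-negative MI libraries, against 11.4, 4.58 and 5.26 CPM in Cre-positive sham and 6.87, 10.6 and 9.07 CPM in Cre-negative sham libraries. MI and sham libraries did not overlap, and the log2 fold change was 2.43 ± 0.28 (adjusted p = 2.66e-05) in Cre-positive hearts and 2.74 ± 0.28 (adjusted p = 6.41e-06) in Cre-negative hearts. The C3ar1 window (chr6:122856108-122856407, minus strand, GRCm38.p6) is shown because this receptor had the largest rise among complement members and the window holds an AP-1 match, again in capitals.
C3ar1: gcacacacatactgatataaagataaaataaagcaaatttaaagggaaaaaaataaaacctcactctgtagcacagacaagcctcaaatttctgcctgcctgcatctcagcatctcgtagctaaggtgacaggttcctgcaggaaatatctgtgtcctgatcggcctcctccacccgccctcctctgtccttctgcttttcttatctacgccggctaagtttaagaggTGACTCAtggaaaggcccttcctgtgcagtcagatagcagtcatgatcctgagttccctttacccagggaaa
The C5ar1 window held none of the 7 motifs.

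Of the 3 regulators that restrain complement, Cd55 and Serping1 rose in Cre-positive hearts, none passed the test in Cre-negative hearts and Cd59a passed in neither. Serping1, the inhibitor of C1 and of the lectin proteases, averaged 224.5 ± 32.3 CPM in Cre-positive MI hearts and 172 ± 28.2 CPM in Cre-positive sham hearts, and 210.5 ± 16.03 CPM in Cre-negative MI hearts and 168 ± 5.24 CPM in Cre-negative sham hearts (SD, n = 3 each). Its log2 fold change was 0.38 ± 0.13 (adjusted p = 0.0338) in Cre-positive hearts and 0.32 ± 0.13 (adjusted p = 0.0585) in Cre-negative hearts. The Cre-positive call was lost in 11 alternatives, among them RLE scaling (0.0527), sham replicate 2 left out (0.157), MI replicate 2 left out (0.128) and the Y-linked covariate (0.0644). Its MI and sham libraries overlapped in Cre-positive hearts, with 187.7 CPM in the lowest MI and 200.2 CPM in the highest sham library. In Cre-negative hearts Serping1 was called in 5 alternatives, among them only the 2 groups compared (0.0094) and Cre-positive sham replicate 2 left out (0.0383). The authors' deposited tables gave Serping1 adjusted p of 0.182 in Cre-positive and 0.00618 in Cre-negative hearts. Cd55, which speeds the decay of convertases, had 15.8, 16.96 and 16.2 CPM in Cre-positive MI and 14.4, 18.8 and 19.01 CPM in Cre-negative MI libraries, against 8.77, 4.40 and 11.8 CPM in Cre-positive sham and 8.75, 13.7 and 13.8 CPM in Cre-negative sham libraries. All MI libraries were above all sham libraries, and Cre-positive sham replicate 2 was lowest. The log2 fold change of Cd55 was 0.98 ± 0.28 (adjusted p = 0.0121) in Cre-positive hearts and 0.53 ± 0.27 (adjusted p = 0.115) in Cre-negative hearts, the second not past the threshold, and 0.64 in Cre-positive hearts without sham replicate 2. In Cre-negative hearts Cd55 was called in 4 alternatives, among them Cre-positive sham replicate 2 left out (0.0237). The authors' deposited tables gave Cd55 adjusted p of 0.0185 in Cre-positive and 0.043 in Cre-negative hearts. Cd59a, which blocks assembly of the membrane attack complex, was scattered in sham hearts, with 30, 104 and 108 CPM in Cre-positive sham libraries, against 33.2, 31.6 and 69.3 CPM in Cre-negative sham libraries, and did not pass the test in either genotype (-0.51 ± 0.41 (adjusted p = 0.341) in Cre-positive hearts and 0.19 ± 0.42 (adjusted p = 0.724) in Cre-negative hearts). Leaving out Cre-positive sham replicate 1, the lowest of its group, gave -0.90 (adjusted p = 0.0321). Differences between the responses did not pass for any of the 3 regulators, with adjusted p of 0.953 for Serping1, 0.766 for Cd55 and 0.764 for Cd59a. The near copies Cd59b and Cd55b had at most 17 and 4 reads in a library.

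**Figure D2:**
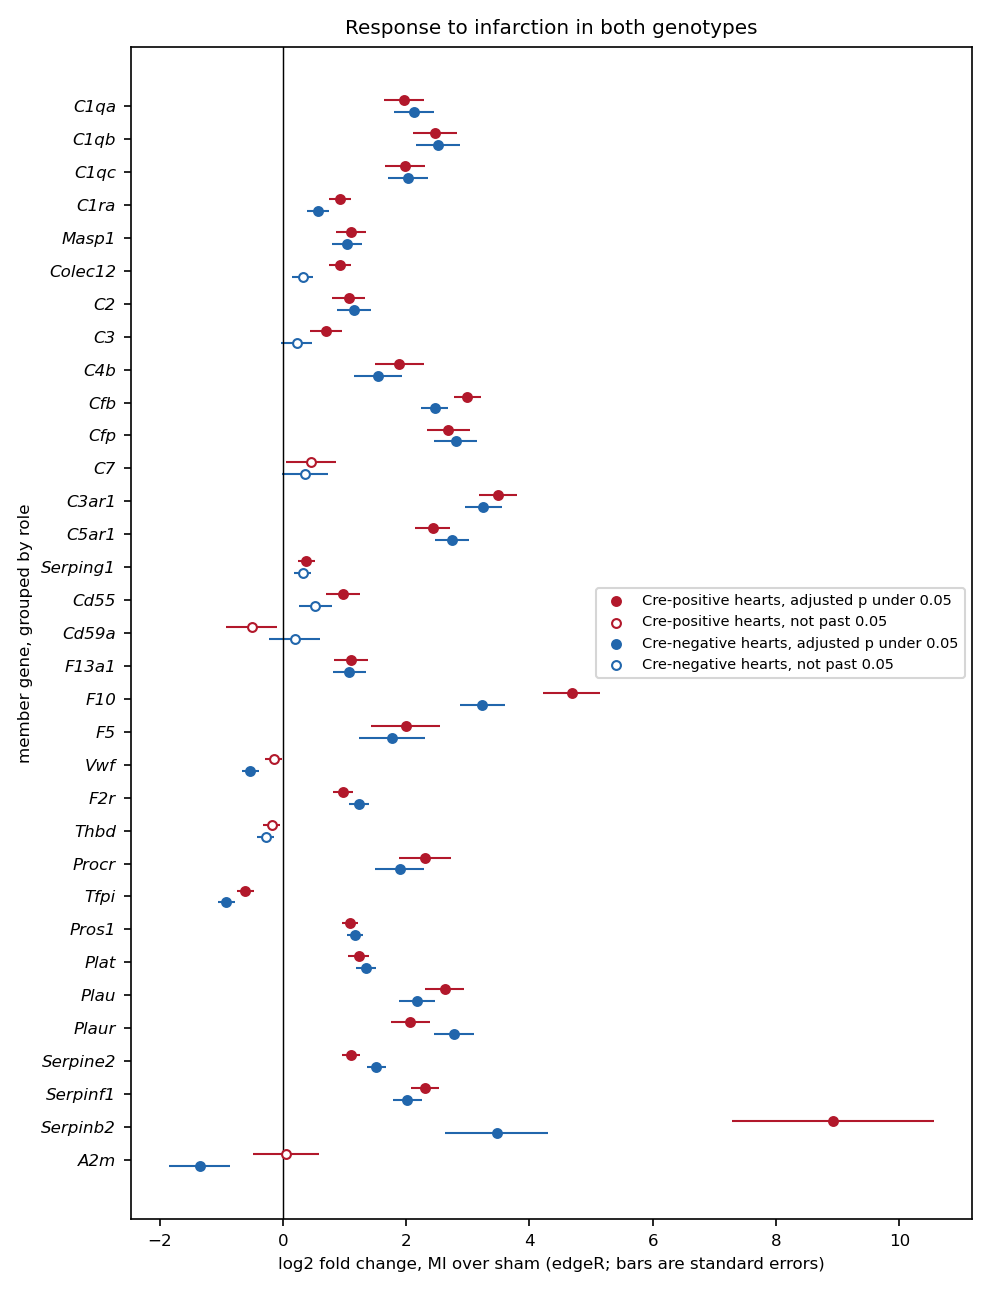
Log2 fold change of MI over sham with its standard error for each module gene, Cre-positive hearts drawn above Cre-negative hearts, filled where the adjusted p was under 0.05. F10 and C3ar1 lie farthest to the right beside Serpinb2, Tfpi lies left of 0 in both, and the Serpinb2 point of Cre-positive hearts is a fitted value against 0 sham reads, not a size.

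Among the coagulation factors, F13a1 rose in both genotypes and Vwf in neither. F10 and F5 were also called up, but they passed the filter on low counts only because of the infarcted hearts. F13a1, the catalytic chain of factor XIII, had 98.6, 109.7 and 80.5 CPM in Cre-positive MI and 141, 129 and 112 CPM in Cre-negative MI libraries, against 57.6, 21.7 and 55.1 CPM in Cre-positive sham and 57.95, 57.7 and 65.3 CPM in Cre-negative sham libraries. MI and sham did not overlap, and the log2 fold change was 1.10 ± 0.27 (adjusted p = 0.00576) in Cre-positive hearts and 1.08 ± 0.27 (adjusted p = 0.00509) in Cre-negative hearts. F10, factor X, was near the floor in sham hearts, with 5.49, 4.74 and 4.51 CPM in Cre-positive MI and 7.71, 7.74 and 5.94 CPM in Cre-negative MI libraries, against 0.161, 0.275 and 0.103 CPM in Cre-positive sham and 0.188, 0.998 and 1.08 CPM in Cre-negative sham libraries. Reads summed over the group were 216 in Cre-positive MI and 6 in Cre-positive sham hearts, a ratio of 27.0 after scaling (95% counting interval 12.2 to 74.5). The model gave a log2 fold change of 4.69 ± 0.46 (adjusted p = 8.27e-06) in Cre-positive hearts and 3.23 ± 0.36 (adjusted p = 1.35e-05) in Cre-negative hearts. The difference of these responses was 1.45 ± 0.68 (adjusted p = 0.611). F5, factor V, stayed low at 1.41 to 3.86 CPM in MI and 0.206 to 1.18 CPM in sham libraries and rose by 1.99 ± 0.56 (adjusted p = 0.0117) in Cre-positive hearts and 1.77 ± 0.54 (adjusted p = 0.0149) in Cre-negative hearts. In Cre-positive hearts the F5 call was lost without MI replicate 1 (adjusted p = 0.0607), and in Cre-negative hearts without MI replicate 2 (0.0632), sham replicate 1 (0.0662) or sham replicate 2 (0.0605).

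Vwf, the endothelial protein that tethers platelets, had 129, 124 and 117 CPM in Cre-positive MI and 111, 109 and 96.4 CPM in Cre-negative MI libraries, against 167, 121 and 123 CPM in Cre-positive sham and 176, 148 and 132 CPM in Cre-negative sham libraries. Cre-negative MI libraries were all below the sham libraries, while Cre-positive MI libraries overlapped with Cre-positive sham libraries. Its log2 fold change was -0.15 ± 0.14 (adjusted p = 0.4) in Cre-positive hearts and -0.53 ± 0.14 (adjusted p = 0.00665) in Cre-negative hearts, and the difference between these was 0.38 ± 0.20 (adjusted p = 0.629). With library totals alone as the scaling, the Cre-negative value was -0.28 (adjusted p = 0.115), a scaling that raised the median of all genes by 0.25. F2r, the thrombin receptor PAR1, had 90.6, 79.9 and 72.7 CPM in Cre-positive MI and 114, 94.4 and 84.7 CPM in Cre-negative MI libraries, against 37.2, 50.6 and 36 CPM in Cre-positive sham and 34.8, 45.4 and 44.1 CPM in Cre-negative sham libraries. It rose in both genotypes without overlap, by 0.97 ± 0.16 (adjusted p = 0.000425) in Cre-positive hearts and 1.24 ± 0.16 (adjusted p = 4.76e-05) in Cre-negative hearts on the log2 scale.

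Natural anticoagulants went in different directions. Tfpi, which blocks tissue factor and factor Xa, had 86.4, 87.2 and 69.2 CPM in Cre-positive MI and 66.4, 56.01 and 64.4 CPM in Cre-negative MI libraries, against 102, 142 and 126 CPM in Cre-positive sham and 119, 107 and 128 CPM in Cre-negative sham libraries. Every MI library was below every sham library, as were 16.5% of all genes, and Tfpi was the only module gene so arranged. It fell by 0.61 ± 0.14 in Cre-positive hearts (log2, adjusted p = 0.00328) and by 0.92 ± 0.14 in Cre-negative hearts (log2, adjusted p = 0.000132), and the call held under each alternative run. The Tfpi window (chr2:84476710-84477009, minus strand, GRCm38.p6) is shown as that of the gene that fell in both genotypes, with its PU.1 core, again on the opposite strand and after the start, in capitals.
Tfpi: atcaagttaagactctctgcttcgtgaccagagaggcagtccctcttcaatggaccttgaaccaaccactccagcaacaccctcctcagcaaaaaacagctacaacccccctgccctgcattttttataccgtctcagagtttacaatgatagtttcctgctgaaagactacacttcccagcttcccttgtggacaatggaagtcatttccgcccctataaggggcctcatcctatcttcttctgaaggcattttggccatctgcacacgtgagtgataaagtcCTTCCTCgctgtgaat
Procr, the endothelial receptor of protein C, had 7.39, 6.36 and 15.6 CPM in Cre-positive MI and 7.48, 10.99 and 16.7 CPM in Cre-negative MI libraries, against 2.57, 1.92 and 1.34 CPM in Cre-positive sham and 3.48, 3.79 and 2.17 CPM in Cre-negative sham libraries. Procr MI libraries were all above sham libraries though they varied among themselves, and it rose by 2.31 ± 0.43 (adjusted p = 0.000917) in Cre-positive hearts and 1.89 ± 0.40 (adjusted p = 0.00179) in Cre-negative hearts. Pros1, protein S, the cofactor of activated protein C, had 45.3, 41.3 and 40.6 CPM in Cre-positive MI and 55.95, 46.9 and 47.3 CPM in Cre-negative MI libraries, against 19.95, 18.4 and 21.5 CPM in Cre-positive sham and 18.4, 22.96 and 25.5 CPM in Cre-negative sham libraries. The groups of MI and sham were tight and apart, and Pros1 rose by 1.09 ± 0.13 (adjusted p = 3.12e-05) in Cre-positive hearts and 1.17 ± 0.13 (adjusted p = 1.14e-05) in Cre-negative hearts. Thbd, thrombomodulin, which turns thrombin toward protein C, did not pass the test, with log2 fold changes of -0.18 ± 0.14 (adjusted p = 0.294) in Cre-positive hearts and -0.28 ± 0.14 (adjusted p = 0.105) in Cre-negative hearts. Leaving out Cre-negative MI replicate 2 gave -0.41 (adjusted p = 0.0318) in Cre-negative hearts.

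**Figure D3:**
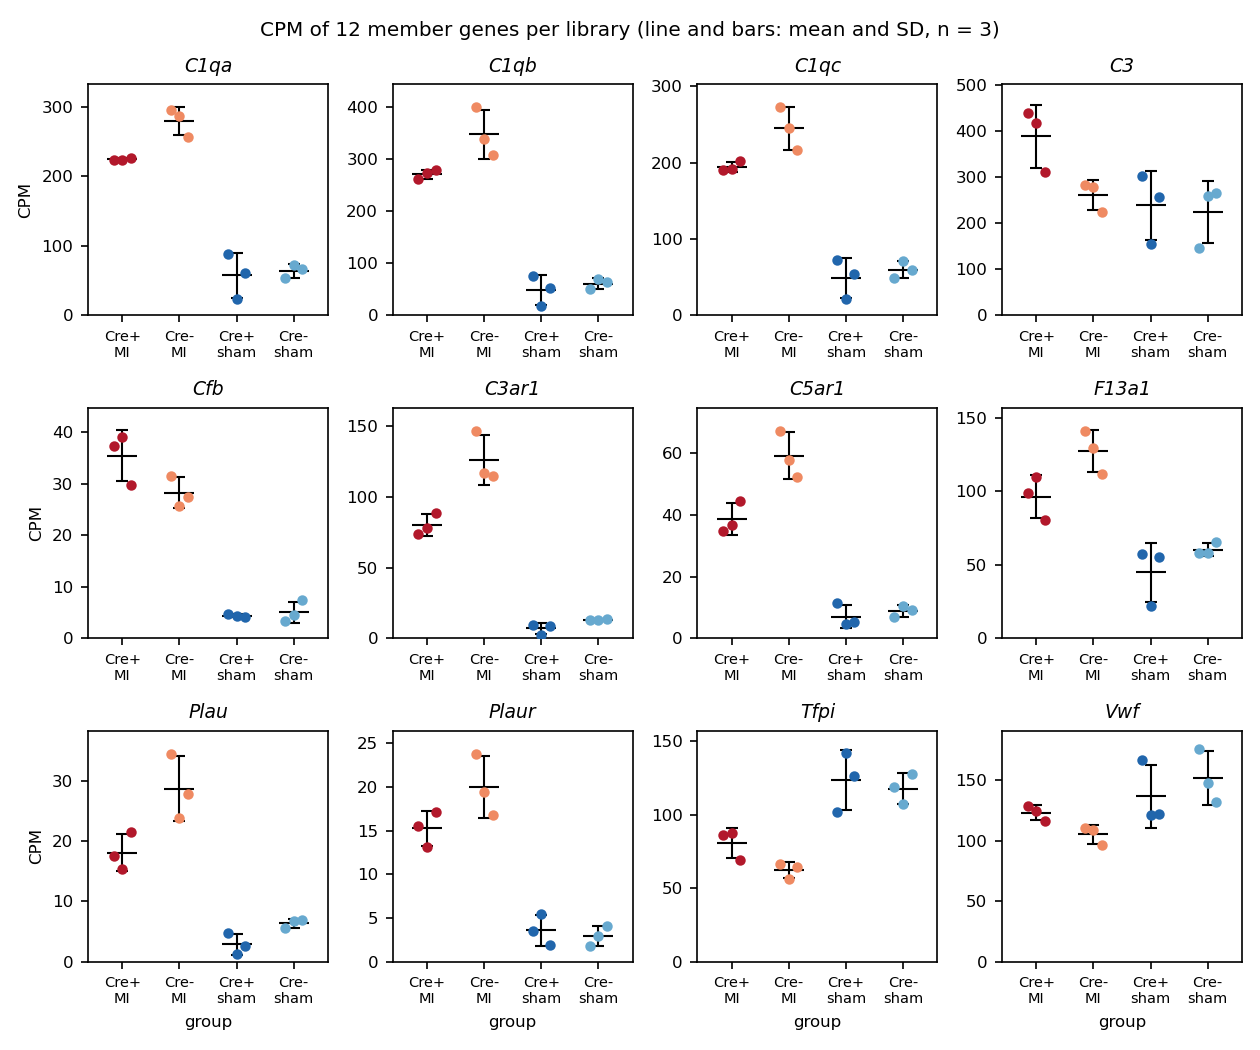
CPM of 12 module genes in each library, with the mean and SD of each group (n = 3), the 2 MI groups left of the 2 sham groups. C1q chains, Cfb, C3ar1, C5ar1, Plau and Plaur show no overlap of MI with sham, Tfpi lies lower in MI hearts, and C3 is highest in Cre-positive MI hearts at 310 to 439 CPM.

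Both plasminogen activators and the urokinase receptor rose in both genotypes. Plau, the urokinase-type activator, had 17.5, 15.3 and 21.5 CPM in Cre-positive MI and 34.4, 23.9 and 27.9 CPM in Cre-negative MI libraries, against 4.75, 1.28 and 2.58 CPM in Cre-positive sham and 5.55, 6.69 and 6.90 CPM in Cre-negative sham libraries. MI libraries were all above sham libraries, and in both surgeries the Cre-positive libraries lay below the Cre-negative ones. Plau rose by 2.63 ± 0.32 (adjusted p = 3.73e-05) in Cre-positive hearts and 2.17 ± 0.29 (adjusted p = 5.39e-05) in Cre-negative hearts on the log2 scale, and by 2.23 in Cre-positive hearts without sham replicate 2. Plaur, the receptor that holds Plau at the cell surface, had 15.5, 13.1 and 17.1 CPM in Cre-positive MI and 23.8, 19.5 and 16.8 CPM in Cre-negative MI libraries, against 3.54, 5.41 and 1.86 CPM in Cre-positive sham and 1.79, 2.90 and 4.14 CPM in Cre-negative sham libraries. Plaur rose by 2.07 ± 0.31 (adjusted p = 0.00022) in Cre-positive hearts and 2.77 ± 0.32 (adjusted p = 1.93e-05) in Cre-negative hearts. Plat, the tissue-type activator, had 37.7, 29.8 and 29.4 CPM in Cre-positive MI and 44.4, 31.6 and 34.4 CPM in Cre-negative MI libraries, against 15.04, 13.2 and 13.1 CPM in Cre-positive sham and 11.7, 14.98 and 16.7 CPM in Cre-negative sham libraries. Plat rose by 1.23 ± 0.17 (adjusted p = 0.000102) in Cre-positive hearts and 1.35 ± 0.17 (adjusted p = 3.13e-05) in Cre-negative hearts. None of the 3 overlapped between MI and sham. The ratio of Plau to Plat in FPKM, picked after its values were seen and not tested, was 0.509 to 0.803 in Cre-positive MI and 0.829 to 0.892 in Cre-negative MI libraries, against 0.107 to 0.346 in Cre-positive sham and 0.454 to 0.522 in Cre-negative sham libraries. The Plaur window (chr7:24462233-24462532, plus strand, GRCm38.p6) is shown because it held 3 of the motifs, PU.1, AP-1 and C/EBP in that order from the 5′ end, each in capitals.
Plaur: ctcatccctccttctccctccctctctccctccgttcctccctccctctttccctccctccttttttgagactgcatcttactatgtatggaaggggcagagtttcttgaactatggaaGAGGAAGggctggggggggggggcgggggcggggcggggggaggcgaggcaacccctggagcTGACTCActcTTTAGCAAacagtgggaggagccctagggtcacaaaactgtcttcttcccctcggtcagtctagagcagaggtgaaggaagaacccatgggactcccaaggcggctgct
AP-1 matches were also found in windows of F2r, Procr and Serpinb2.

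Serpins, a family named for protease inhibition, rose in the infarcted hearts with differing certainty. Serpine2, protease nexin, an inhibitor of thrombin and of plasminogen activators, had 78.7, 67.98 and 74 CPM in Cre-positive MI and 82.3, 85.7 and 83.5 CPM in Cre-negative MI libraries, against 31.3, 42.5 and 28.7 CPM in Cre-positive sham and 31.9, 23.7 and 32.2 CPM in Cre-negative sham libraries. MI and sham were fully apart, and Serpine2 rose by 1.11 ± 0.15 (adjusted p = 0.0001) in Cre-positive hearts and 1.52 ± 0.15 (adjusted p = 6.08e-06) in Cre-negative hearts. Serpinf1 encodes pigment epithelium-derived factor, a family member without known protease inhibition, and had 157, 133 and 136 CPM in Cre-positive MI and 175, 173 and 176 CPM in Cre-negative MI libraries, against 37.6, 15.9 and 32.7 CPM in Cre-positive sham and 39.04, 44.03 and 46.03 CPM in Cre-negative sham libraries. Cre-negative MI libraries lay within a narrow band above the Cre-positive MI libraries, and the log2 fold change was 2.30 ± 0.23 (adjusted p = 9.59e-06) in Cre-positive hearts and 2.02 ± 0.23 (adjusted p = 1.46e-05) in Cre-negative hearts. Serpinb2, plasminogen activator inhibitor 2, had 3.39, 7.84 and 2.72 CPM in Cre-positive MI and 4.35, 6.68 and 5.47 CPM in Cre-negative MI libraries, against 0, 0 and 0 CPM in Cre-positive sham and 0, 0 and 1.48 CPM in Cre-negative sham libraries. In Cre-positive hearts 202 MI reads stood against 0 sham reads, at least 16.9-fold higher against a floor of 3 reads per library. In Cre-negative hearts 264 MI reads stood against 15 sham reads, all 15 from sham replicate 3, a ratio of 11.2 (95% counting interval 6.69 to 20.4). Serpinb2 was called in both genotypes (adjusted p = 0.00143 and adjusted p = 0.00556), but DESeq2 gave an adjusted p of 0.0536 in Cre-negative hearts. Like F10 and F5, Serpinb2 passed the filter on low counts only because of the infarcted hearts. A2m, which traps proteases of many kinds, was at 0.25 to 1.51 CPM and its log2 fold change was 0.05 ± 0.54 (adjusted p = 0.952) in Cre-positive hearts and -1.35 ± 0.50 (adjusted p = 0.0365) in Cre-negative hearts, a fall that passed in Cre-negative hearts. That A2m call rested on 4 to 14 reads per MI library against 9 to 16 per sham library and was lost in 8 alternatives, among them no filter (adjusted p = 0.051), with DESeq2 (0.0514) and without sham replicate 1 (0.132). The difference of the responses was 1.40 ± 0.73 (adjusted p = 0.632).

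Markers of cell types moved with these results, and their part in them was not tested. Summed over 12 genes, macrophage and monocyte markers were at 1260 to 1418 CPM in Cre-positive MI and 1686 to 1868 CPM in Cre-negative MI libraries, against 117 to 324 CPM in Cre-positive sham and 310 to 338 CPM in Cre-negative sham libraries. In each genotype 11 of the 12 rose. For this and the marker counts below, 25.7% of all genes rose in Cre-positive hearts and 29.9% in Cre-negative hearts, and 19.5% and 24.4% fell. The 6 fibroblast markers summed to 4911 to 5604 CPM in Cre-positive MI and 6266 to 7214 CPM in Cre-negative MI libraries, against 847 to 894 CPM in Cre-positive sham and 1094 to 1338 CPM in Cre-negative sham libraries. Of these 5 rose in each genotype, but the sums were not typical of the single markers. Their log2 fold changes were 0.34 to 5.22 (median 0.99) in Cre-positive hearts and 0.11 to 4.12 (median 0.68) in Cre-negative hearts. Summed platelet markers were at 48.9 to 51.2 and 64.4 to 106 CPM in Cre-positive and Cre-negative MI libraries, against 12.6 to 18.4 and 15.5 to 18.04 CPM in sham libraries of the same genotypes. Of the 9 platelet markers 5 were tested. In Cre-positive hearts 3 rose and 1 fell, and in Cre-negative hearts 4 rose and 1 fell. Gp1bb, at 0.402 to 0.887 CPM in sham libraries, was among those that rose in both. It passed the filter on low counts only because of the infarcted hearts. Gp1bb and Gp1ba are counted again among the other pathway genes below. Cardiomyocyte markers, which define the tissue, were at 54010 to 65020 CPM in Cre-positive MI and 38370 to 53440 CPM in Cre-negative MI libraries, against 59450 to 109800 CPM in Cre-positive sham and 88740 to 101000 CPM in Cre-negative sham libraries. The value of 59450 CPM was that of Cre-positive sham replicate 2. Of the 8 cardiomyocyte markers 5 fell in Cre-positive and 7 in Cre-negative hearts, and 0 rose in either. Neutrophil markers, of which 6 of 9 were tested, summed to 25.4 to 57.0 CPM in Cre-positive MI and 44.1 to 98.4 CPM in Cre-negative MI libraries, against 17.3 to 21.6 CPM in Cre-positive sham and 8.56 to 22.9 CPM in Cre-negative sham libraries. Of the 6, 2 rose in Cre-positive and 5 in Cre-negative hearts. After MI all 6 had log2 fold changes of Cre-positive over Cre-negative hearts below 0 (median -0.80), 0 being called. The 6 mesothelial markers summed to 65.3 to 117 CPM in Cre-positive MI and 54.1 to 71.1 CPM in Cre-negative MI libraries, against 43.4 to 51.3 CPM in Cre-positive sham and 35.9 to 48.7 CPM in Cre-negative sham libraries. Of these mesothelial markers 4 rose in each genotype, and 1 fell in Cre-negative hearts. The sum of 9 endothelial markers stayed within 975 to 1128 CPM in all 12 libraries. Of the 9 endothelial markers, 2 fell in Cre-positive hearts, and 1 rose and 1 fell in Cre-negative hearts. These shares were near or below those of all genes. The hepatocyte markers Alb and Apoa1 had at most 3 counts in every library, and all 7 hepatocyte markers together reached at most 16.4 CPM.

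**Figure D4:**
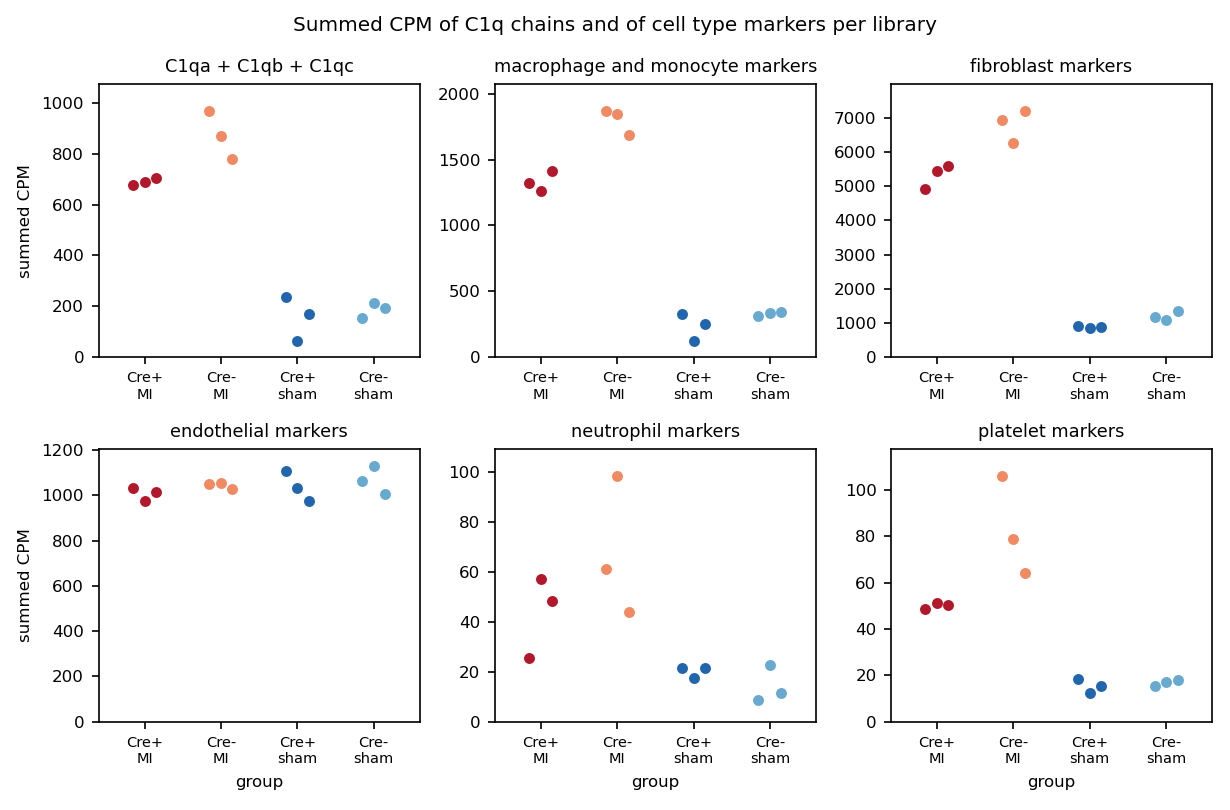
Summed CPM of the 3 C1q chains and of 5 lists of cell type markers in each library, the MI groups left of the sham groups. Macrophage markers and C1q chains are both lowest in Cre-positive sham replicate 2 and both lower in Cre-positive MI than in Cre-negative MI libraries.

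The comparison of Cre-positive with Cre-negative hearts after infarction joins Yap targeting in Postn-expressing cells with the Cre allele at Postn. Sex is partly mixed with genotype here. Y-linked genes were above 10 CPM in 1 of 3 Cre-positive MI and 3 of 3 Cre-negative MI libraries. With edgeR across all 12 libraries, 0 of the 33 module genes were called, as was 0% of all 13678 genes, and the smallest adjusted p of the module was 0.301, for Tfpi. At an unadjusted p under 0.05 there were 5 module genes (C3, C3ar1, C5ar1, Tfpi and Plau), where 12.6% of all genes passed. DESeq2 over the same libraries called 0 as well, 5 of the genes being under 0.05 unadjusted, where 12.7% of all genes were. In the authors' deposited table, which compares the same groups, 9 module genes had an adjusted p under 0.05 among 763 genes in all, or 4.44%. DESeq2 on only those 6 libraries, an alternative added after seeing the data, called 10 module genes and 7.39% of all genes. With edgeR on only those 6 libraries 0 module genes and 0.00738% of all genes were called. In that fit 17 module genes were under 0.05 unadjusted, where 21.2% of all genes were. The cause of the difference between these counts was not tested.

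Both peptide receptors, Plau and the C1q chains were among the genes with lower levels in Cre-positive MI hearts. C3ar1 had 73.9, 78.1 and 88.5 CPM in Cre-positive MI libraries, against 147, 117 and 115 CPM in Cre-negative MI libraries, the groups not overlapping, with a log2 fold change of -0.65 ± 0.27 (adjusted p = 0.349). In the authors' deposited table its log2 fold change was -0.64 (adjusted p = 0.000128). Without Cre-positive sham replicate 2 edgeR gave -0.64 ± 0.11 (adjusted p = 0.0592). C5ar1 had 34.9, 36.9 and 44.5 CPM in Cre-positive MI libraries, against 67.4, 57.8 and 52.4 CPM in Cre-negative MI libraries, with a log2 fold change of -0.61 ± 0.25 (adjusted p = 0.349) here and -0.60 (0.0019) in the authors' deposited table. Plau had 17.5, 15.3 and 21.5 CPM in Cre-positive MI libraries, against 34.4, 23.9 and 27.9 CPM in Cre-negative MI libraries, with -0.67 ± 0.26 (adjusted p = 0.332) here and -0.65 (0.0119) in the authors' deposited table. C1qa had 224, 224 and 227 CPM in Cre-positive MI libraries, against 296, 287 and 258 CPM in Cre-negative MI libraries. The log2 fold changes were -0.32 ± 0.31 (adjusted p = 0.737) for C1qa, -0.36 ± 0.33 (adjusted p = 0.712) for C1qb and -0.33 ± 0.31 (adjusted p = 0.712) for C1qc. The authors' deposited table gave these chains adjusted p of 0.0197, 0.0372 and 0.0476. The same authors' deposited table gave Cfp -0.46 (0.0264), where the fit across all libraries gave -0.47 ± 0.31 (adjusted p = 0.567). In all, 12 module genes were lower in each Cre-positive MI library than in any Cre-negative MI library, an arrangement that 15.2% of all genes showed. Beside C1qa, C1qb, C1qc, Cfp, C3ar1, C5ar1 and Plau these were F13a1, F10, Pros1, Serpine2 and Serpinf1. Of the 12 macrophage and monocyte markers 7 were lower without overlap in the same way, 0 being called, and their part in the lower module levels was not tested.

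Of the 33 module genes, 3 (C3, Tfpi and Vwf) were higher in each Cre-positive MI library than in any Cre-negative MI library. This was no larger a share than the 12% of all genes so arranged, and none of the 3 was called in the fit across all libraries. C3 had 439, 417 and 310.3 CPM in Cre-positive MI libraries, against 283, 278 and 224 CPM in Cre-negative MI libraries, a log2 fold change of 0.57 ± 0.26 (adjusted p = 0.387) here and 0.59 (adjusted p = 0.0025) in the authors' deposited table. Tfpi had 86.4, 87.2 and 69.2 CPM in Cre-positive MI libraries, against 66.4, 56.01 and 64.4 CPM in Cre-negative MI libraries, with 0.38 ± 0.14 (adjusted p = 0.301) here and 0.39 (0.0441) in the authors' deposited table. Vwf had 129, 124 and 117 CPM in Cre-positive MI libraries, against 111, 109 and 96.4 CPM in Cre-negative MI libraries, with 0.23 ± 0.14 (adjusted p = 0.534) here and 0.24 (0.161) in the authors' deposited table. For Tfpi the difference between the injury responses did not pass (0.31 ± 0.19 (adjusted p = 0.684)). Over the whole module 21 genes had a log2 fold change below 0 and 12 above 0, with a median of -0.19 beside -0.01 over all genes. Summed cardiomyocyte markers were higher in each Cre-positive MI library than in any Cre-negative MI library.

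**Figure D5:**
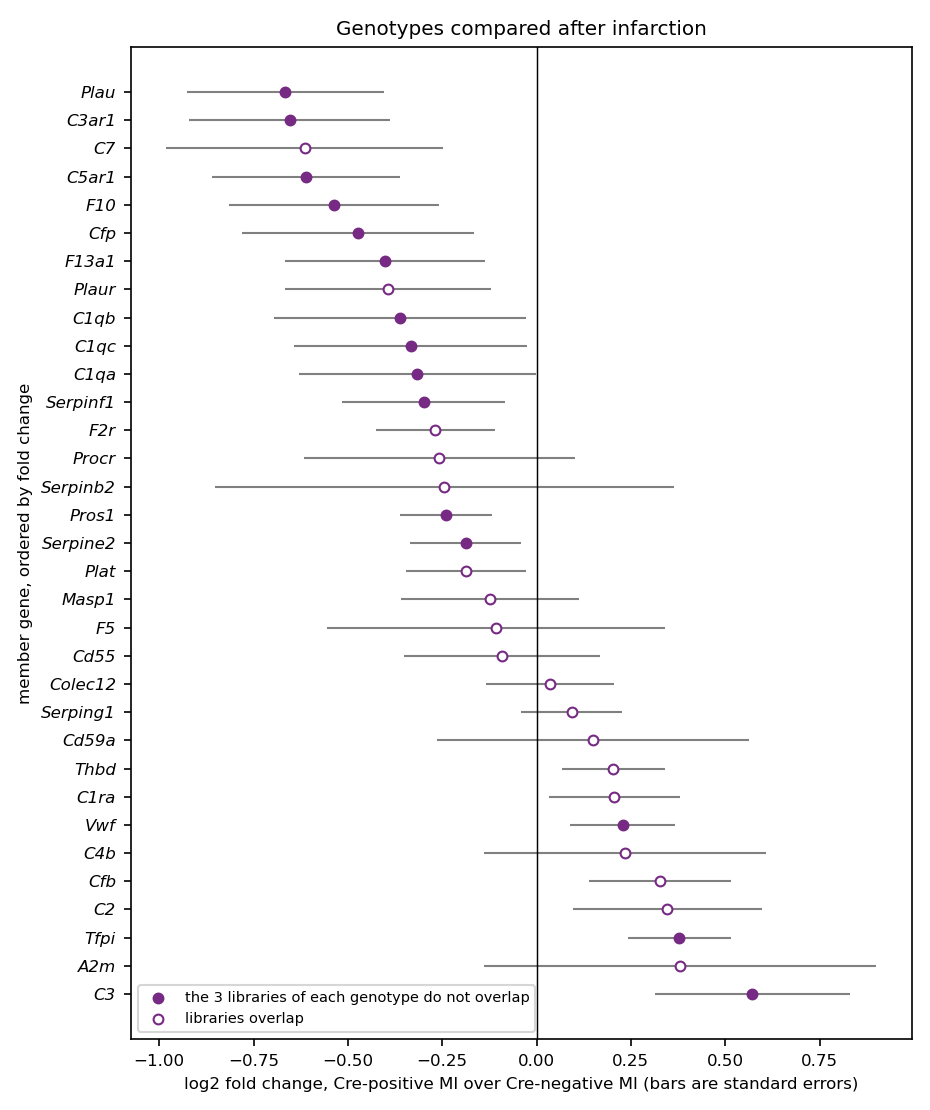
Log2 fold change of Cre-positive MI over Cre-negative MI hearts with its standard error for the 33 module genes in order of size, filled where the 3 libraries of each genotype do not overlap. Filled points are 12 below 0, from Plau at -0.67 to Serpine2 at -0.19, and 3 above 0, of which C3 at 0.57 is the highest, and none passed an adjusted p of 0.05 in the fit across all libraries.

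In sham hearts no module gene was called between genotypes, where 0.0512% of all genes (7 genes) were. The authors' deposited table of this comparison had 0 module genes under 0.05, the smallest adjusted p being 0.922. At an unadjusted p under 0.05 there were 5 genes (Colec12, C3ar1, F10, Plau and Serpinf1), where 8.22% of all genes passed, and DESeq2 over all libraries gave 6, where 8.52% of all genes passed. Plau had 4.75, 1.28 and 2.58 CPM in Cre-positive sham libraries, against 5.55, 6.69 and 6.90 CPM in Cre-negative sham libraries, with a log2 fold change of -1.12 ± 0.34 (adjusted p = 0.582) and -0.74 without sham replicate 2. C3ar1 had 9.81, 2.66 and 8.87 CPM in Cre-positive sham libraries, against 12.8, 12.98 and 14 CPM in Cre-negative sham libraries, with -0.89 ± 0.32 (adjusted p = 0.582) and -0.47 without that library. Serpinf1 had 37.6, 15.9 and 32.7 CPM in Cre-positive sham libraries, against 39.04, 44.03 and 46.03 CPM in Cre-negative sham libraries, with -0.58 ± 0.23 (adjusted p = 0.586) and -0.26 without it. In each of these the Cre-positive libraries were lower without overlap, and sham replicate 2 was the lowest. Colec12 had 39.9, 33.2 and 46.3 CPM in Cre-positive sham libraries, against 50.4, 66.8 and 59.6 CPM in Cre-negative sham libraries, with -0.57 ± 0.17 (adjusted p = 0.582). Together with F13a1 and A2m, 6 genes were lower without overlap (5.15% of all genes) and 0 were higher (5.5% of all genes).

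A direct test of whether the injury response differed between genotypes called 0 module genes and 0% of all genes, 1 module gene being under an unadjusted p of 0.05 by edgeR and 2 by DESeq2, where 8.22% of all genes passed with DESeq2. Genes called in 1 genotype and not in the other (Colec12, C3, Serping1 and Cd55 among those that rose, Vwf and A2m among those that fell) were therefore not shown to respond differently. The difference was -0.05 ± 0.48 for C1qb, -0.70 ± 0.45 for Plaur and -0.41 ± 0.21 for Serpine2 on the log2 scale.

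Other genes of the same cascades were examined from a list of 80, of which 67 were listed in the files and 41 tested. In Cre-positive hearts 25 of the 41 rose and 3 fell after MI, where 25.7% of all genes rose and 19.5% fell. In Cre-negative hearts 24 rose and 7 fell, where 29.9% of all genes rose and 24.4% fell. Both counts of rises include Cfi, F7, Serpind1, F2rl3, Gp1bb and Itgax, each at most 1.30 CPM in every sham library. These passed the filter on low counts only because of the infarcted hearts, so their MI over sham difference was partly set by that filter. The medians of the 41 were 0.85 and 1.11 on the log2 scale. The 4 with the smallest p were the same in both genotypes. Itgb2, the beta chain of complement receptor 3, rose by 3.35 ± 0.21 (adjusted p = 4.3e-07) in Cre-positive hearts and 3.26 ± 0.21 (adjusted p = 2.49e-07) in Cre-negative hearts on the log2 scale. Vkorc1, the reductase that recycles vitamin K for clotting factors, rose by 1.48 ± 0.11 (adjusted p = 9.85e-07) in Cre-positive hearts and 1.79 ± 0.11 (adjusted p = 1.92e-07) in Cre-negative hearts. Anxa2 and S100a10, which together form a cell-surface receptor for plasminogen and its activators, rose by 2.42 ± 0.18 and 1.65 ± 0.14 in Cre-positive hearts and by 2.62 ± 0.18 and 1.83 ± 0.14 in Cre-negative hearts. The 3 that fell in Cre-positive hearts were F3, the tissue factor that Tfpi restrains, C1qbp and the platelet gene Gp1ba. Chosen for its role after its values were seen, F3 had 22.3, 20.9 and 18.98 CPM in Cre-positive MI and 16.8, 15.5 and 15.5 CPM in Cre-negative MI libraries, against 30.9, 45.2 and 39.5 CPM in Cre-positive sham and 36.1, 31.9 and 40.4 CPM in Cre-negative sham libraries, and fell in both genotypes (-0.89 ± 0.14 (adjusted p = 0.000296) in Cre-positive hearts and -1.18 ± 0.14 (adjusted p = 2.51e-05) in Cre-negative hearts). Between genotypes 0 of the 41 were called after MI or sham by edgeR and by DESeq2 over all libraries.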

How the data were processed

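RNA of mouse left ventricles was sequenced in 12 libraries. Per the submitters' processing notes, Bowtie2 2.2.5 and RSEM 1.2.12 were used with build mm10. Per the file headers, the deposited library files hold expected counts per gene and FPKM values, which the authors computed, and transcript lengths. The authors also deposited tables of their own comparisons, with a log2 fold change, a p-value and an adjusted p-value per gene, quoted here only where named.

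Expected counts were rounded to whole numbers (at 2 decimals, 74.0% of the nonzero ones were whole already). With R 4.3.3 and edgeR 4.0.16, filterByExpr (minimum count 10) kept 13678 of 17471 genes and removed 3793. Libraries were scaled by TMM, the model had 1 coefficient for each group over the 12 libraries, leaving 8 residual degrees of freedom, and 5 contrasts were tested with the two-sided quasi-likelihood test, adjusted by Benjamini and Hochberg's method over all genes tested, with calls at an adjusted p under 0.05. The tests were run on simulated counts first. Errors of log2 fold changes are standard errors, and those of CPM and FPKM are SD over 3 libraries. The 95% intervals of read counts and the floor of 3 reads per library describe sampling of reads alone. For 3 against 3 libraries an exact permutation test cannot give a p below 0.1, so none is reported.

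The alternatives were RLE scaling, no filter, DESeq2 1.42.0, a replicate block, a covariate of 4 Y-linked genes, only the 2 groups compared and leaving out each library. Library totals alone and DESeq2 on only the 2 groups compared were added after seeing the data. No pair of libraries was identical. Members, lists and markers were chosen with earlier results of these data known. All 33 members are described, and of other pathway genes the 4 called with the smallest p in each contrast, with near copies of members and Yap1 and Postn. Positions and promoter windows are from RefSeq for GRCm38.p6, the build also called mm10.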

Additional observations from a re-analysis of the deposited data

How the results depend on the processing

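Of the results of both injury contrasts, none changed direction under an alternative once called, and counts of module genes called stayed within 1.5 times the reported ones. Leaving out each library in turn gave 25 to 29 module genes called in Cre-positive and 23 to 28 in Cre-negative hearts, and 24 to 28 and 25 to 33 of the other pathway genes. It gave 0 in both genotype contrasts and in the difference of the responses. DESeq2 on only the 2 groups compared called 10 module genes and 6 other pathway genes between Cre-positive and Cre-negative MI hearts, where the reported counts are 0, and the cause was not tested. Library totals alone raised the median log2 fold change of all genes by 0.23 in Cre-positive and 0.25 in Cre-negative hearts. Whether same-numbered samples belong together is not given in the labels, and correlations within groups of 3 cannot decide it. Deviations of 18 same-numbered pairs correlated at -0.154 to 0.288, 4 of them over 0.1, and 5 of 12 libraries matched their own number best. The highest of all pairs, 0.288 and 0.254, joined Cre-positive and Cre-negative MI libraries of replicate 1 and of replicate 3. With the replicate block 27 and 26 module genes were called in Cre-positive and Cre-negative hearts and 0 in the other contrasts. For A2m, 26 reads in Cre-positive MI and 19 in Cre-positive sham libraries gave a ratio of 1.03 with a 95% counting interval of 0.547 to 1.97. That interval describes sampling of reads alone, and the fitted log2 fold change had a standard error of 0.54. Differences inside the interval, and some beyond it, could therefore be missed.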
